A study of Mus musculus with 12 samples.

Results

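The 10 genes described here are transcription factors and regulators of the circadian clock together with the related Bhlhe factors: *Arntl*, *Clock*, *Per1*, *Per2*, *Cry1*, *Nr1d1*, *Nr1d2*, *Dbp*, *Bhlhe40* and *Bhlhe41*. Every peak that the deposited annotation assigned to one of these symbols was taken. This gave 36 of 26706 Rpb2 peaks, from 8 of the genes, and 22 of 55862 H3K27Ac peaks, from all 10. Rpb2 is a subunit of RNA polymerase II, so its ChIP-seq reads gather where polymerase sits on DNA. H3K27Ac, the acetylation of lysine 27 of histone H3, marks active promoters and enhancers. *Bhlhe40* and *Per2* are described from H3K27Ac alone, and their Rpb2 binding was not analysed here.

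The clock is a feedback loop of transcription. ARNTL (also called BMAL1) and CLOCK bind E-boxes as a pair and activate the *Per*, *Cry*, *Nr1d* and *Dbp* genes, PER and CRY proteins repress that pair, and NR1D1 and NR1D2 (REV-ERBα and REV-ERBβ) repress *Arntl* through ROR elements. DBP activates genes through D-boxes, and BHLHE40 and BHLHE41 repress through E-boxes; both Bhlhe factors are also known as regulators of tissue macrophages and microglia.

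Microglia, the resident macrophages of the brain, were compared between WT mice and KO mice in which eGFP disrupts both copies of *Cx3cr1* in every cell from the germline on. *Cx3cr1* encodes the fractalkine receptor. All mice were 2-mo-old littermates on the C57BL/6J background, kept under a light/dark cycle, and the time of day at which brains were taken is not given in the sources used here. The cells were fixed and sorted as CD11b+ CD45lo, and each sample pooled 3 mice of the same sex, so that each mark had, for either genotype, 1 female and 1 male pool by label (n = 2). Nothing separates fewer cells that carry a mark from less of it per cell in such pools.

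Libraries held 10395804 to 44332626 reads. For Rpb2 both KO libraries were deeper, with 44332626 (female) and 16528108 (male) reads against 11662185 and 13653287 in WT. The part of this depth in the Rpb2 peak lists and differences below was not tested. The share of reads in peaks was 11.2% to 15.1% in the Rpb2 libraries and 61.1% to 65.3% in 3 of the H3K27Ac libraries, but 15.9% in the H3K27Ac library labelled WT female. At 3 Y-linked peaks the Rpb2 library labelled WT female held 136 reads, against 214 (WT) and 266 (KO) in the male pools and 0 in the KO female, so it goes against its sex label; the label was kept. *Cx3cr1*, the disrupted gene, carried 25 Rpb2 peaks whose sum was 2812 and 2429 CPM (reads scaled to the size of each library) in the WT female and male against 2085 and 1831 in the KO female and male. The eGFP allele leaves most of the locus in place, so these reads do not test the deletion. All 7 microglia markers examined (*P2ry12*, *Tmem119*, *Csf1r*, *Sall1*, *Fcrls*, *Siglech*, *Aif1*) had peaks of both marks, summing to 4519 to 4905 CPM for Rpb2 and 2741 to 4427 CPM for H3K27Ac. Of the 5 monocyte or neutrophil, 3 border macrophage, 4 lymphocyte and 4 neuron markers, 0 had a Rpb2 peak. Rpb2 peaks were found at 1 of 4 astrocyte markers (159.9 to 213.8 CPM), 2 of 4 oligodendrocyte markers (130.7 to 166.4 CPM) and 1 of 3 endothelial markers (22 to 44.3 CPM). For H3K27Ac, the summed level ran from 41.9 to 78.8 CPM at 3 of 5 monocyte or neutrophil markers, 50.5 to 62.3 CPM at 3 of 3 border macrophage markers, 0 to 7.35 CPM at 1 of 4 lymphocyte markers, 17.7 to 59.3 CPM at 3 of 4 neuron markers, 357.4 to 519.6 CPM at 2 of 4 astrocyte markers, 323.2 to 375.7 CPM at 4 of 4 oligodendrocyte markers and 96.4 to 101.9 CPM at 3 of 3 endothelial markers. The part of other cells in the values below was not tested.

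The sequence elements through which these genes regulate each other were looked up in the promoter windows of RefSeq (GRCm38.p6, from 250 bases before to 50 after a start site; 8 of the 10 genes matched, with 12 windows). The letters searched on both strands were CACGTG for the E-box, CACGTT for the E-prime box, TTATGNAA for the D-box and TAGGTCA for the ROR element. An E-box was present for *Bhlhe41*, *Cry1* and *Per1* (3 of the 12 windows, against 7.15% of all 32851 windows), an E-prime box for *Cry1* and *Nr1d1* (2 of 12, against 4.68%), a D-box for *Per1* (1 of 12, against 3.39%) and a ROR element for *Arntl* (1 of 12, against 2.61%). The shares over all windows were not matched for base composition. In the E-box windows, G or C made up 73.6% (*Bhlhe41*), 71.2% (*Cry1*) and 62.0% (*Per1*) of the 250 bases before the start. The median over all windows was 52.4%. The element matches are printed because each lies in or near a Rpb2 or H3K27Ac peak described later. Sequences run 5′ to 3′ on the strand of the gene, and capitals mark the element.

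*Bhlhe41* E-box (chr6:145865568-145865573, minus strand): ggtacgttccgCACGTGagctgggtgct
*Per1* E-box (chr11:69098783-69098788, plus strand): gcacccaagtcCACGTGcagggatgtgt
*Per1* D-box (chr11:69098925-69098932, plus strand): agggcctggcaTTATGCAAcccgcctccca
*Nr1d1* E-prime box (chr11:98775400-98775405, minus strand): gcacagatctcAACGTGccggctgctgg
*Arntl* ROR element (chr7:113207541-113207547, plus strand): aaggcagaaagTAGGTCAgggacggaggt

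*Cry1* was the only one of the 8 matched genes with both an E-box and an E-prime box in its window. The 120 bases before its annotated start (chr10:85185065-85185184, minus strand) hold both, in capitals, and the Rpb2 promoter peak of *Cry1* covers them.

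*Cry1* upstream: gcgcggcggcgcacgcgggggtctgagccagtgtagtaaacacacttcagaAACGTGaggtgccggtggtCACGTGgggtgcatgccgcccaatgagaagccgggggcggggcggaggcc

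Around the peaks themselves, in 300-base windows centred on each Rpb2 peak, an E-box was present in 5 of the 36 peaks of these genes, and in 6.82% of all 26702 peaks searched. E-prime boxes were present in 4 of the 36 (4.78% of all), a D-box in 1 (2.48%) and a ROR element in 1 (2.31%). Among peaks within 1000 bp of a TSS, an E-box was present in 1 of 13, against 8.95% of all such peaks. There an E-prime box was present in 2 (5.22% of all), a D-box in 1 (1.16%) and a ROR element in 1 (1.39%). The window of the *Dbp* intron peak centred 2446 bp after the start held 2 E-boxes, 1 of them just outside the peak, and 1 E-prime box. This was more than in the window of any other peak of these genes. They are shown because this peak is also among those with the lowest p-values below. They are written on the plus strand, which is the strand of *Dbp*.

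*Dbp* intron E-box (chr7:45707712-45707717): cattccctcgcCACGTGagtccgccttc
*Dbp* intron E-box just outside the peak (chr7:45707825-45707830): gctgtaggccaCACGTGatgcggccctg
*Dbp* intron E-prime box (chr7:45707774-45707779): gcggggccgggAACGTGcgggtgcttgg

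A match is a description of letters and says nothing of binding by a clock protein, which was not measured.

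Polymerase at the start sites was compared among the 8 genes first, per kb of peak, using for each gene the strongest peak within 1000 bp of the start (TSS) that the deposited annotation assigned to it. *Per1* and *Bhlhe41* had the most Rpb2, and *Clock* the least. Over the 4 pools *Per1* ranged from 405.0 to 561.3 CPM per kb at this peak (742.7 to 1062 at a second peak, over another annotated start described further on) and *Bhlhe41* from 299.7 to 549.6. *Nr1d2* followed at 146.8 to 261.7 CPM per kb and *Arntl* at 119.7 to 213.3. *Dbp* (45.4 to 153.7), *Cry1* (48.6 to 140.3), *Nr1d1* (23.6 to 116.6) and *Clock* (21.5 to 115.4) were lower. The only neighbours in this order whose ranges did not overlap were *Bhlhe41* and *Nr1d2*. Among the strongest promoter peaks of 8350 genes, *Per1* stood at the 85.6th to 91.7th percentile by pool, *Bhlhe41* at the 71.0th to 91.0th and *Clock* at the 1.22nd to 28.9th.

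H3K27Ac at the start sites had the same 3 genes at the top and also covered *Per2* and *Bhlhe40*. The broad peaks over the starts of *Per1* and *Bhlhe41* are centred more than 1000 bp from the TSS and were chosen after their values were seen. Per kb of peak, *Per1* held 25.1 to 41.0 CPM, *Bhlhe41* 19.8 to 26.1, *Nr1d2* 21.3 to 24.4, *Dbp* 19.5 to 22.9, *Nr1d1* 14.8 to 21.6 and *Cry1* 13.3 to 19.7. A lower set comprised *Per2* (4.13 to 13.5), *Clock* (5.09 to 9.03) and *Arntl* (4.06 to 7.69), and *Bhlhe40* was lowest at 0.518 to 2.83 CPM per kb. Every neighbouring pair overlapped except *Arntl* and *Bhlhe40*. The *Bhlhe40* peak stood at the 2.92nd to 7.36th percentile of the promoter peaks of 9520 genes, and *Bhlhe40* lay below the related *Bhlhe41* in all 4 pools.

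**Figure D1:**
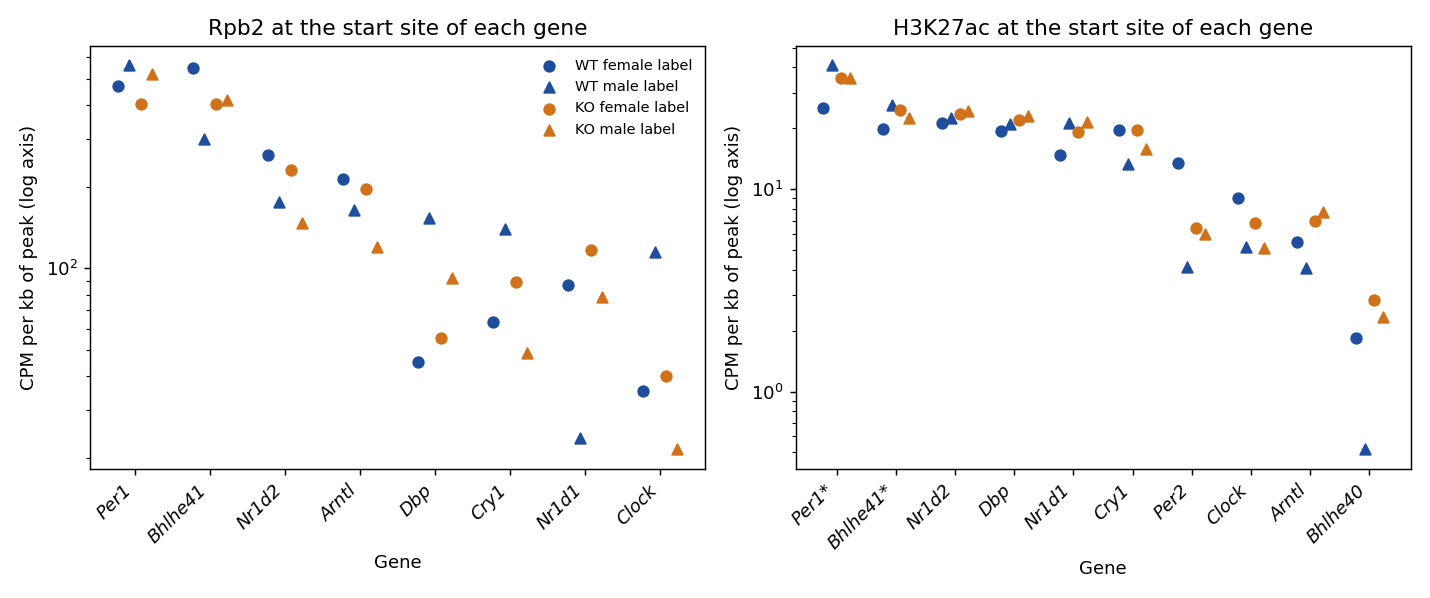
Rpb2 (left) and H3K27Ac (right) at the start site of each gene in CPM per kb of peak (log axis), with 1 point per pool, blue for WT and orange for KO, circles for pools labelled female and triangles for male; asterisks mark broad peaks centred over 1000 bp from the TSS. Points of both colours mix at most genes, while *Per1* and *Bhlhe41* stand above *Clock* for Rpb2 and above *Bhlhe40* for H3K27Ac in every pool.

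Differences between WT and KO were then tested peak by peak, the question being whether loss of *Cx3cr1* goes with a change in transcription of these genes. With edgeR's quasi-likelihood test and Benjamini-Hochberg adjustment over all peaks, 0 of the 36 Rpb2 peaks passed an adjusted p of 0.05, where 0.00749% of all 26706 peaks passed (2 peaks). Of the 22 H3K27Ac peaks 0 passed, where 0.0233% of 55798 tested peaks did (13 peaks). All 36 and all 22 peaks had met the filter on low counts. DESeq2 also called 0 peaks of these genes in either mark. At an unadjusted p under 0.05 the edgeR test counted 4 of 36 Rpb2 peaks, against 12.2% of all Rpb2 peaks, and 0 of 22 H3K27Ac peaks, against 4.95% of all. DESeq2 counted 7 of 36 (17.3% of all Rpb2 peaks) and 0 of 22 (14.5% of all H3K27Ac peaks).

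Both KO pools lay above both WT pools at 10 of the 36 Rpb2 peaks (25.7% of all Rpb2 peaks did so) and below them at 4 (21.7% of all). For H3K27Ac this was 6 higher of 22 (14.3% of all) and 2 lower (13% of all). The list a peak came from moved with its direction. Of the 10 Rpb2 peaks higher in KO, 8 had been found in the KO list alone, which held 19 of the 36. This is 42.1% of those 19, and 41.8% of all peaks of the KO list alone. The median log2 fold change (KO over WT) of the 36 peaks was −0.03, against 0.04 over all Rpb2 peaks, and that of the 22 H3K27Ac peaks was −0.02, against −0.21. The WT list alone gave 33.2% of all H3K27Ac peaks, with a median of −6.78, and 4 of the 22. For H3K27Ac peaks of both lists the median was 0.10 at these genes and 0.04 over all. For Rpb2 peaks of both lists it was −0.20 and −0.17.

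**Figure D2:**
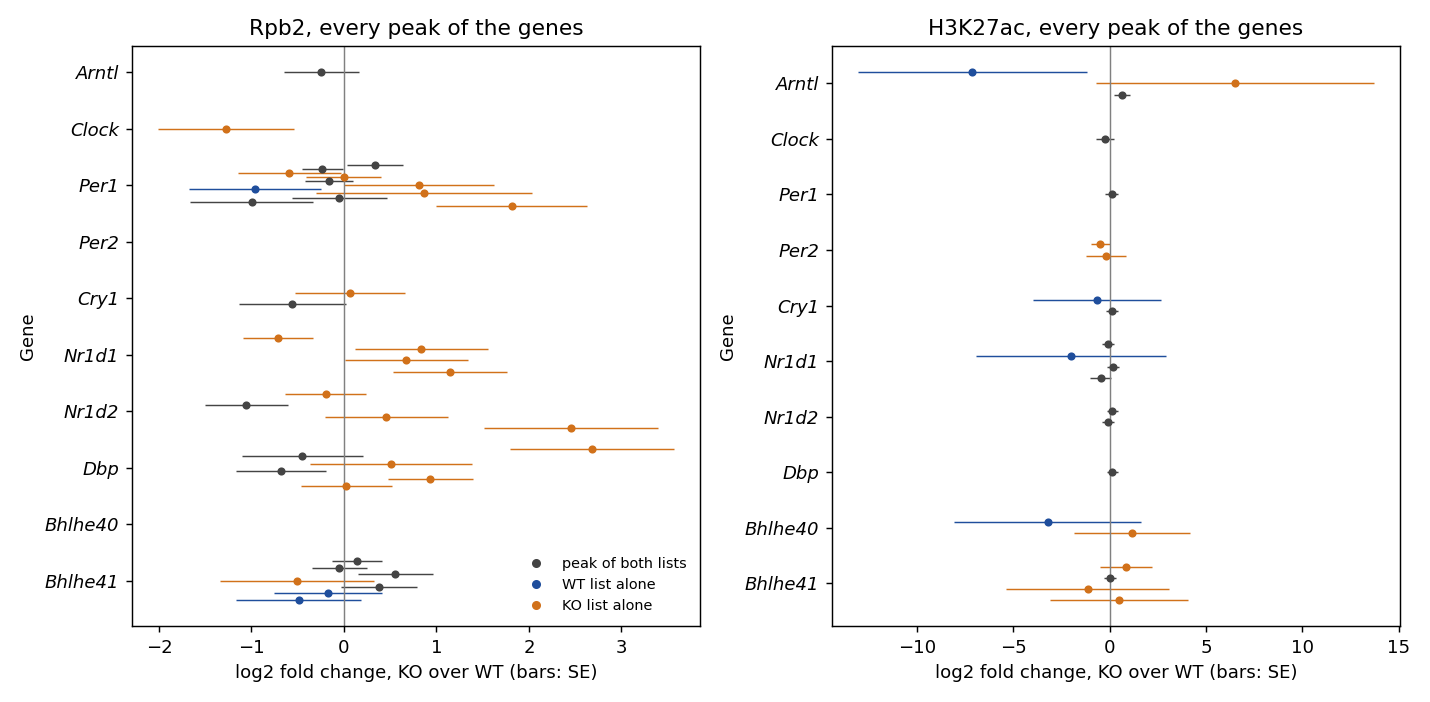
log2 fold change of KO over WT (x axis, bars are SE from edgeR) for each of the 36 Rpb2 peaks (left) and 22 H3K27Ac peaks (right) by gene, coloured by the peak list it came from. Most points lie within 1 unit of 0 for Rpb2; the points far to the right at *Dbp*, *Nr1d2* and *Per1* are peaks of the KO list alone, and the widest H3K27Ac bars belong to peaks with few reads.

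Neither gene of the activating pair passed the test. *Arntl*, the partner of CLOCK, had 1 Rpb2 peak (chr7:113206925-113207201, 402 bp before the TSS) with 59.1 and 45.4 CPM in the WT female and male against 54.4 and 33.2 in the KO female and male. The genotypes overlapped, and the log2 fold change was −0.24 (SE 0.40, edgeR adjusted p = 0.839). Its H3K27Ac promoter peak (chr7:113206241-113209038), which contains the ROR element shown above, held 15.3 and 11.3 CPM in WT against 19.5 and 21.5 in KO. Each KO pool exceeded each WT pool. The log2 fold change was 0.63 (SE 0.42, edgeR adjusted p = 0.811), the lowest p-value of the 22 H3K27Ac peaks.

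*Arntl* also had 2 small H3K27Ac peaks upstream, 1 of the WT list alone and 1 of the KO list alone. The peak 17643 bp before the TSS had its 14 reads in the WT female alone, with 0 in the other 3 pools, and the peak 10677 bp before it had 26 (female) and 7 (male) reads for KO, with 0 for both WT pools. The adjusted p-values from edgeR were 0.835 and 0.919, so neither passed the threshold. The WT female is the library with 15.9% of its reads in peaks. At the second peak the KO male held 0.562 CPM. A count of 0 allows up to 0.848 CPM in the WT female and 0.48 CPM in the WT male.

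*Clock* had 1 Rpb2 peak, over its TSS (chr5:76304587-76304894), with 10.9 and 35.6 CPM in WT against 12.4 and 6.63 in KO. The WT male alone was high, and the WT female lay between the KO pools. The log2 fold change was −1.27 (SE 0.74, edgeR adjusted p = 0.511). It was −1.88 without the library labelled WT female (adjusted p = 0.0537 by edgeR) and −0.16 without the WT male; over all alternatives the adjusted p ran up to 0.968. H3K27Ac there was 19.5 and 11.2 CPM in WT against 14.7 and 11 in KO (log2 fold change −0.24, SE 0.46, edgeR adjusted p = 0.997). The peaks of both marks also overlap *Gm7467* on the other strand, from which reads cannot be told apart.

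*Per1*, a repressor of the loop that is also induced quickly by many signals, carried 11 Rpb2 peaks, more than any of the other 7 genes with Rpb2 peaks. Its strongest peak (chr11:69095203-69095421) covers the most upstream annotated start of the gene at 69095217. It held 232 and 201 CPM in the WT female and male against 206 and 163 in the KO female and male, which overlap (log2 fold change −0.23, SE 0.22, edgeR adjusted p = 0.693). The next strongest (chr11:69098846-69099096) covers the start at 69098948 and contains the D-box shown above. There Rpb2 was 118 and 141 CPM in WT against 102 and 131 in KO (log2 fold change −0.16, SE 0.26, edgeR adjusted p = 0.831). Polymerase thus sat at both starts in all 4 pools, and at neither did the genotypes separate. A weaker peak lies just before a start at 69100152 (chr11:69099742-69100018), with 63.8 and 36.2 CPM in WT against 42.7 and 56.9 in KO.

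Within the *Per1* gene the peaks were weak and went both ways. The peak in an exon near the 3′ end (chr11:69109182-69109418) held 4 and 10 reads in the WT female and male against 88 and 48 in the KO female and male, or 3.11 and 6.58 CPM against 16.0 and 18.7. Both KO pools were higher, with a log2 fold change of 1.81 (SE 0.82, edgeR adjusted p = 0.400), or 1.12 with loess offsets. This peak came from the KO list alone. An intron peak (chr11:69107973-69108399) lay lower in both KO pools, with 26.4 and 15.8 CPM in WT against 11.3 and 9.75 in KO (log2 fold change −0.995, SE 0.67, edgeR adjusted p = 0.566). Summed over its 11 peaks, *Per1* had 573 and 622 CPM in WT against 529 and 579 in KO. These sums overlap between the genotypes. The intron peak at chr11:69103557-69103842 had 0 reads (library labelled female) and 16 reads (male) for WT, against 49 and 28 for KO, and passed the threshold only without the WT male, as did 7.35% of all Rpb2 peaks (adjusted p = 0.0185 by edgeR, 0.794 with all pools and 0.728 to 0.983 over all settings in which it was not called).

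One H3K27Ac peak of 9942 bp (chr11:69091802-69101743) spans all of these *Per1* starts and also overlaps the neighbouring gene *Vamp2*. It ranked 608th by width among the 55798 tested peaks. The KO pools, at 351 CPM (female) and 353 CPM (male), lay between the WT pools, at 249.2 CPM (female) and 408 CPM (male) (log2 fold change 0.10, SE 0.34, edgeR adjusted p = 1). Without the WT male it was 0.50 (adjusted p = 0.000369 by edgeR, where 14.8% of all H3K27Ac peaks passed) and without the WT female −0.22 (adjusted p = 0.276), so that sign and call turned on which WT pool was kept. The adjusted p was at least 0.963 in the settings that kept all 4 pools.

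**Figure D3:**
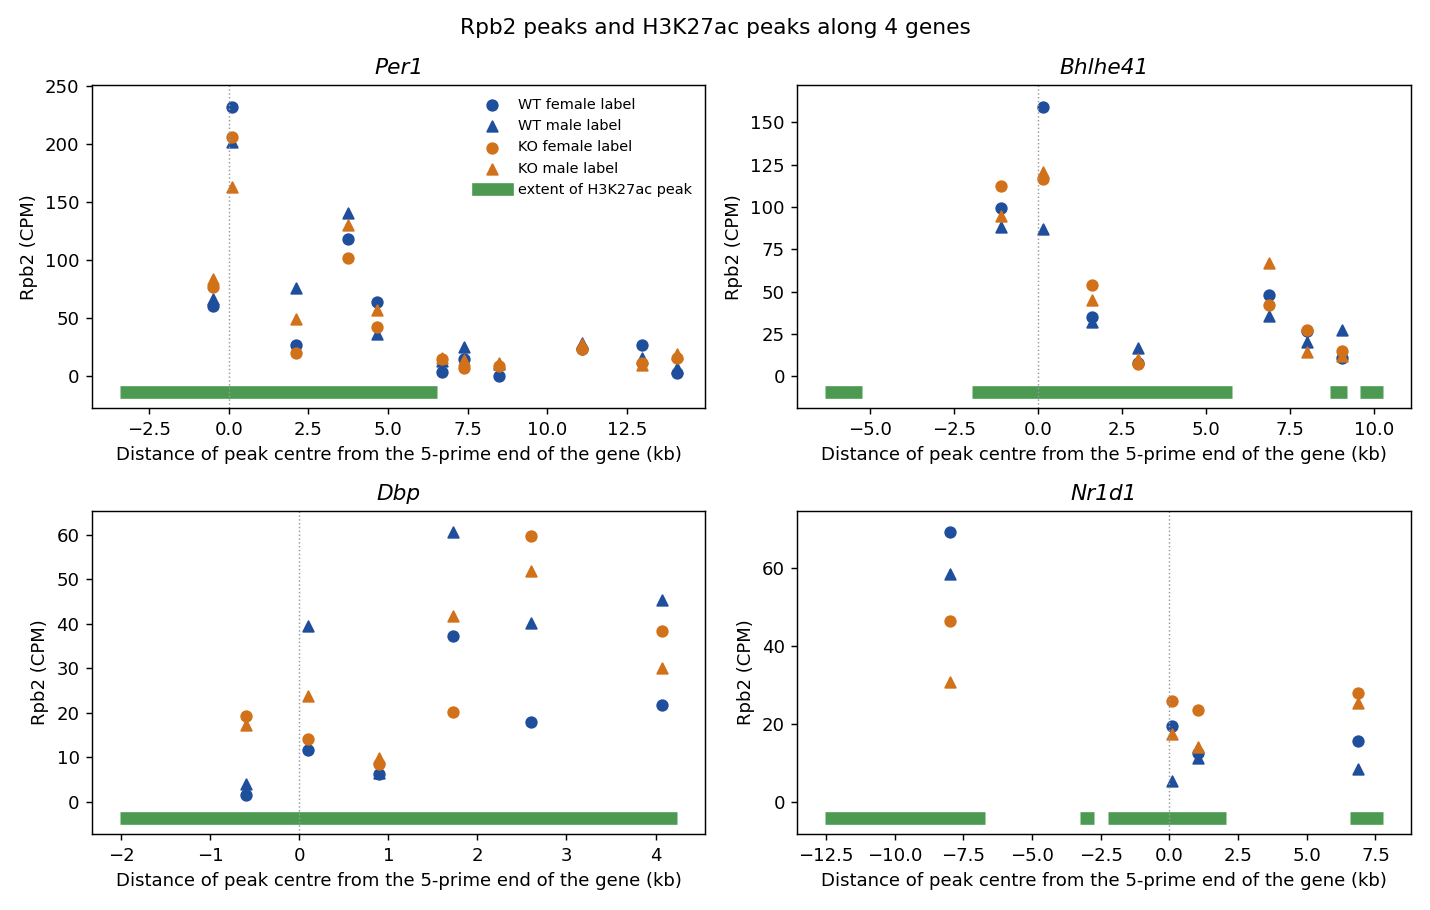
Rpb2 in CPM (y axis) at each peak of *Per1*, *Bhlhe41*, *Dbp* and *Nr1d1* against the distance of its centre from the 5′ end of the gene in kb (x axis), with 1 point per pool, blue for WT and orange for KO, and green bars for the extent of H3K27Ac peaks. *Per1* has a pair of high peaks, near 0 and near 4 kb, *Nr1d1* has its highest peak about 8 kb upstream within an H3K27Ac peak, and points of both genotypes mix at most peaks.

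*Per2*, the paralog of *Per1*, had an H3K27Ac peak over its start (chr1:91458026-91459767) with 23.5 and 7.19 CPM in the WT female and male against 11.2 and 10.4 in the KO female and male. Its WT pools stood on either side of both KO pools, and the log2 fold change was −0.48 (SE 0.49, edgeR adjusted p = 0.899). A second peak, in an intron, held 9.89 and 1.44 CPM in WT against 3.04 and 6.74 in KO. *Cry1*, the partner of the PER proteins, had 19.4 and 42.8 CPM of Rpb2 in WT against 27.3 and 14.8 in KO over the elements shown above (chr10:85184889-85185193). These overlap (log2 fold change −0.56, SE 0.57, edgeR adjusted p = 0.720). The sum of both *Cry1* Rpb2 peaks was 46.7 and 57.9 CPM in WT against 44.4 and 42.1 in KO. The genotypes did not overlap here, with KO lower, as for 24.6% of all 10206 genes with a Rpb2 peak. H3K27Ac at the *Cry1* promoter was 40.7 and 27.6 CPM in WT against 40.8 and 32.7 in KO (log2 fold change 0.11, SE 0.32, edgeR adjusted p = 1).

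*Nr1d1*, which encodes REV-ERBα, had its strongest Rpb2 peak away from the promoter. This peak (chr11:98783222-98783445, 7956 bp before the TSS) lies in an H3K27Ac peak of 5805 bp and held 69.2 and 58.6 CPM in WT against 46.6 and 30.8 in KO. Both KO pools were lower, with a log2 fold change of −0.71 (SE 0.38, edgeR adjusted p = 0.476). The other 3 Rpb2 peaks had fold changes of the other sign. All 4 came from the KO list alone, where 75.8% of all Rpb2 peaks had a fold change above 0. At the TSS (chr11:98775121-98775343), Rpb2 was 19.4 and 5.27 CPM in WT against 26.0 and 17.6 in KO (log2 fold change 0.84, SE 0.72, edgeR adjusted p = 0.664). The fold change was 2.03 without the library labelled WT female and 0.18 without the WT male. The peak in an exon near the 3′ end (chr11:98768262-98768649) held 15.6 and 8.56 CPM in WT against 27.8 and 25.4 in KO (log2 fold change 1.15, SE 0.61, edgeR adjusted p = 0.473). *Thra* on the other strand overlaps this peak, and the reads of the 2 genes cannot be told apart. With these directions cancelling, the *Nr1d1* sum was 117 and 83.6 CPM in WT against 124 and 87.8 in KO.

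H3K27Ac at the *Nr1d1* promoter was 63.3 and 90.8 CPM in WT against 82.1 and 92.0 in KO (log2 fold change 0.17, SE 0.29, edgeR adjusted p = 0.988). The broad upstream peak held 90.7 and 129 CPM in WT against 105 and 103 in KO. Neither separated the genotypes. At this 3′ exon, where *Thra* overlaps, H3K27Ac was 12.7 and 11.8 CPM in WT against 6.61 and 11.1 in KO, lower in both KO pools (log2 fold change −0.47, SE 0.55, edgeR adjusted p = 0.933). Rpb2 was higher in both there, at a peak of the KO list alone.

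*Nr1d2*, which encodes REV-ERBβ, held 2 of the 4 Rpb2 peaks with an unadjusted p under 0.05, with opposite signs. The peak in an intron near the start (chr14:18238151-18238408, 827 bp after the TSS) had 38.9 and 69.8 CPM in WT against 22.4 and 30.4 in KO. The KO pools lay below the WT pools (log2 fold change −1.05, SE 0.45, edgeR adjusted p = 0.376). The peak past the end of the gene (chr14:18202278-18202533) had 3 and 5 reads in the WT female and male against 54 and 56 in the KO female and male, or 2.33 and 3.29 CPM against 9.82 and 21.8. Here the KO pools were the higher, at a peak of the KO list alone (log2 fold change 2.45, SE 0.94, edgeR adjusted p = 0.331). It was 1.25 with loess offsets, which follow the mean count, in place of TMM. At the TSS itself Rpb2 was 52.9 and 35.6 CPM in WT against 46.7 and 29.7 in KO (log2 fold change −0.20, SE 0.44, edgeR adjusted p = 0.883). H3K27Ac at the promoter was 51.7 and 54.5 CPM in WT against 56.9 and 59.2 in KO. The KO pools were higher by less than the error of the fit (log2 fold change 0.13, SE 0.29, edgeR adjusted p = 1).

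*Dbp*, the output factor that acts on D-boxes, had the lowest p-value of the 36 Rpb2 peaks. This peak (chr7:45704391-45704599, 752 bp before the TSS) held 2 and 6 reads in the WT female and male against 106 and 44 in the KO female and male, or 1.56 and 3.95 CPM against 19.3 and 17.2. Both KO pools were higher, with a log2 fold change of 2.68 (SE 0.89, edgeR adjusted p = 0.265). It lies within *Car11*, a gene on the same strand, and came from the KO list alone. It passed the threshold only without the WT male (log2 fold change 3.52, adjusted p = 0.0207 by edgeR), a setting in which 7.35% of all Rpb2 peaks passed. In the other settings the adjusted p ran from 0.056 with DESeq2 to 0.948, and the fold change was 1.62 with loess offsets.

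The intron peak of *Dbp* with the E-boxes shown above (chr7:45707582-45707805) held 17.9 and 40.2 CPM in WT against 59.8 and 51.9 in KO (log2 fold change 0.94, SE 0.46, edgeR adjusted p = 0.437). The KO pools were the higher, and this peak too came from the KO list alone. Over the TSS the order turned: 11.7 and 39.5 CPM in WT against 14.2 and 23.8 in KO (log2 fold change −0.45, SE 0.66, edgeR adjusted p = 0.812). The WT male exceeded the WT female at all 6 Rpb2 peaks of *Dbp*, which holds for 50.0% of all Rpb2 peaks. Summed, *Dbp* had 96.4 CPM (female) and 196 CPM (male) in the WT pools, which enclosed the KO pools at 160 and 174 CPM. One H3K27Ac peak of 6256 bp (chr7:45703078-45709333) covered the gene from before its start to short of its 3′ end, and also overlaps *Car11*. It held 122 and 132 CPM in WT against 137 and 143 in KO (log2 fold change 0.14, SE 0.30, edgeR adjusted p = 1).

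*Bhlhe41*, the more strongly marked Bhlhe gene, carried 7 Rpb2 peaks. Over the TSS (chr6:145865267-145865556) Rpb2 was 159 and 86.9 CPM in WT against 117 and 121 in KO. Both KO pools lay between the WT pools (log2 fold change −0.05, SE 0.30, edgeR adjusted p = 0.964). A peak of similar height, at 99.5 and 88.2 CPM in WT against 112 and 94.8 in KO, lay 1231 bp before the TSS (chr6:145866513-145866789) and held an E-box and an E-prime box (log2 fold change 0.14, SE 0.27, edgeR adjusted p = 0.858). The intron peak 1485 bp after the TSS was the only one of the 7 in which both KO pools were higher, with 35.0 and 32.3 CPM in WT against 53.6 and 44.9 in KO (log2 fold change 0.55, SE 0.41, edgeR adjusted p = 0.604). It overlaps *Gm43909* on the other strand. Summed, *Bhlhe41* had 387 and 307 CPM in WT against 374 and 364 in KO.

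The H3K27Ac peak over *Bhlhe41* was 7721 bp wide (chr6:145859797-145867517) and held 153 and 202 CPM in WT against 190 and 173 in KO (log2 fold change 0.04, SE 0.31, edgeR adjusted p = 1). *Bhlhe40* had a weak H3K27Ac peak over its promoter (chr6:108659591-108660825) with 8 and 4 reads (WT) against 46 and 36 (KO), or 2.26 and 0.639 CPM against 3.5 and 2.89. Both KO pools were higher, within a wide error (log2 fold change 1.14, SE 3.01, edgeR adjusted p = 1). Its second peak, 1346 bp before the TSS, had 0 and 29 reads (WT) against 2 and 4 (KO). The first came from the KO list alone and the second from the WT list alone. Both overlap *0610040F04Rik* on the other strand.

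**Figure D4:**
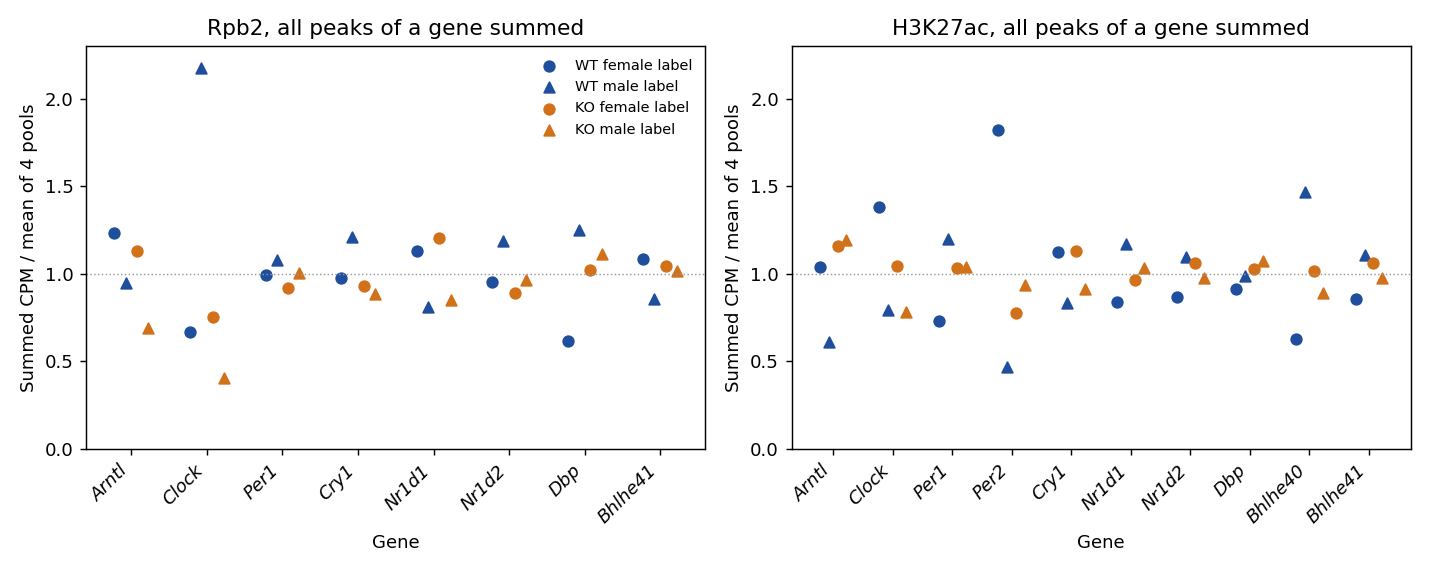
CPM summed over all peaks of a gene, divided by the mean of the 4 pools (y axis), for Rpb2 (left) and H3K27Ac (right), with 1 point per pool, blue for WT and orange for KO, circles for pools labelled female and triangles for male. WT points spread more widely than KO points at every gene for H3K27Ac, and for Rpb2 at all but *Arntl*, *Nr1d1* and *Per1*. The highest ratio is that of *Clock* Rpb2 in the WT male.

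Both marks coincided at these genes about as often as elsewhere. Of the 36 Rpb2 peaks 27 (75.0%) overlapped an H3K27Ac peak by at least 1 bp, against 76.6% of all Rpb2 peaks. Within 1000 bp of a TSS it was 13 of 13 (98.2% of all such peaks) and beyond it 14 of 23 (63.4% of all). The 9 Rpb2 peaks without H3K27Ac were 6 in the body of *Per1*, 2 at the 3′ end of *Bhlhe41* and the distal peak of *Nr1d2*.

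Other genes of the clock were counted from a list of 29 (among them *Per3*, *Cry2*, *Npas2*, *Rora*, *Tef*, *Hlf*, *Nfil3*, *Csnk1e* and *Creb1*). Of 60 Rpb2 peaks at 22 of these genes, 0 passed in either direction, 3 were higher and 3 lower at an unadjusted p under 0.05 (12.2% of all Rpb2 peaks, both directions together), and the lowest adjusted p by edgeR was 0.243. Of 108 H3K27Ac peaks at 26 of the genes, 0 passed, 0 were higher and 5 lower at an unadjusted p under 0.05 (4.95% of all H3K27Ac peaks), and the lowest adjusted p was 0.811. At 3 of these 5 peaks, 2 of *Rorb* and 1 of *Nfil3*, the reads (41, 35 and 34) came from the library labelled WT female alone, with 0 in the other 3 pools. The median log2 fold change was 0.0001 for Rpb2 (0.04 over all peaks) and −0.15 for H3K27Ac (−0.21 over all).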

How the data were processed

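ChIP-seq for Rpb2 and H3K27Ac was read from 8 of the 12 samples, leaving out 4 of input DNA. The authors mapped single-end reads to mm10 with Bowtie2, kept unique reads and called peaks with HOMER. They filtered peaks by a rate of irreproducible discovery between replicates, and deposited raw counts for every peak of the joined lists in each library. Some H3K27Ac peaks of the WT list still held reads in 1 WT pool alone. Of those in the WT list alone, 18.6% were higher in the WT male than in the WT female, against 57.8% in both lists. Per-sample columns left unused numbered 0. The chromosome ends of the tables fell within the GRCm38 lengths for 21 of 21 chromosomes. Reads carry no strand here, and distances refer to the nearest annotated start.

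For tests of the counts, edgeR 4.0.16 was run under R 4.3.3 (glmQLFit and glmQLFTest, TMM, genotype alone, Benjamini-Hochberg over all tested peaks of a mark, threshold 0.05) after a filter of a mean of 4 reads in a genotype. This script was checked on simulated counts. Their dispersion (spread beyond counting error) was near that fitted for Rpb2 (0.133) but far below that of H3K27Ac (1.28). The check therefore does not show what the H3K27Ac test can recover. All peaks entered, since the genes were taken with their gene-body peaks; the study's methods used peaks within 1000 bp of a TSS, which were an alternative. CPM used TMM factors and the reads in tested peaks as library size. Named peaks were the strongest within 1000 bp of each TSS and the 5 with the lowest p per mark; the others named were chosen after their values were seen. The genes, gene lists and tests were chosen with earlier results of these data known. Withheld items were left out of the lists and are not reported here. Alternatives were DESeq2 1.42.0 and its size factors, loess offsets, other filters and peak sets, sex as replicate block, and each pool left out. Same-sex pools are different animals, and their deviations from the group means correlated at −0.00762 (Rpb2) and −0.000271 (H3K27Ac), so the labels were not treated as pairs. Python 3.11.15 with pandas 2.3.3, pysam 0.24.0 and matplotlib 3.10.9 was used for the rest.

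A count of 0 allows up to 3 reads, which is 0.546 to 2.33 CPM by Rpb2 library and 0.228 to 0.848 CPM by H3K27Ac library on the scale used here; this floor covers counting error only. The p-values measure the spread between pools, with that of each peak estimated in part from all peaks of its mark. A high p therefore does not mean that the pools of that peak scattered widely. With 2 pools against 2 an exact permutation test cannot give a p below 0.333.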

Additional observations from a re-analysis of the deposited data

Results flagged for a closer look

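At 7 of the named peaks, which number 13 for each mark, the female pools and the male pools moved in opposite directions between genotypes. The share of all peaks that did so was not counted, so the 7 cannot be called many or few. The difference between the sexes was not tested, because 1 pool per sex and genotype leaves no spread to test it with, and the Rpb2 library labelled WT female goes against its sex label. For Rpb2, the log2 ratio of KO over WT in the female pools minus that in the male pools was 2.47 at the start of *Clock* (0.17 and −2.30), 1.96 at that of *Cry1* (0.47 and −1.48), 0.98 at that of *Dbp* (0.27 and −0.71) and −0.92 at that of *Bhlhe41* (−0.45 and 0.47). For H3K27Ac it was −1.58 at the start of *Per2* (−1.05 and 0.52), 0.70 at the broad *Per1* peak (0.49 and −0.21) and 0.54 at the broad *Bhlhe41* peak (0.32 and −0.22). The share of reads in peaks of the H3K27Ac library labelled WT female, 15.9%, enters these last 3 values; its part in them was not tested.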

How the results depend on the processing

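Over all peaks, the count of calls was 2 for Rpb2 and 13 for H3K27Ac. For Rpb2 it became 15 with loess offsets, 1022 with DESeq2, 30 with at least 10 reads in every library, 0 with peaks near a TSS, 8 with peaks of both lists, 4 with sex as replicate block, and 0 to 2210 without 1 pool. For H3K27Ac it became 240 with DESeq2, 1 with at least 10 reads, 0 with peaks near a TSS, 0 with peaks of both lists, 12 with the replicate block, and 2 to 8157 without 1 pool. The cause was not tested. Peaks of these genes were called in 1 setting per mark, both without the WT male: *Dbp* and *Per1* for Rpb2 (2 of 36, against 7.35% of all peaks in that setting) and *Per1* for H3K27Ac (1 of 21, against 14.8%). No peak of these genes was called under the block, where the lowest adjusted p by edgeR was 0.470 for Rpb2 and 1 for H3K27Ac. Direction and side of the threshold were kept in 128 of 142 values for the 13 named Rpb2 peaks and 125 of 143 for the 13 named H3K27Ac peaks.

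Signs turned for these log2 fold changes. Rpb2 at *Bhlhe41* was 0.073 with loess offsets, 0.087 with at least 10 reads, 0.078 near a TSS, 0.11 in both lists and 0.0034 under the block, and Rpb2 at *Per1* 0.0069 in both lists. H3K27Ac with loess offsets was −0.11 at *Per1*, −0.059 at *Dbp*, −0.16 at *Bhlhe41*, −0.012 at *Nr1d2* and −0.011 at *Cry1*, and at *Bhlhe41* −0.023 with DESeq2, −0.021 with its size factors, −0.021 with at least 10 reads and −0.011 in both lists. Without 1 pool, Rpb2 at promoters ranged from −0.35 to 0.012 at *Per1*, −1.07 to 0.14 at *Cry1*, −0.42 to 0.44 at *Bhlhe41*, −0.65 to 0.059 at *Arntl*, −0.57 to 0.10 at *Nr1d2* and −1.09 to 0.69 at *Dbp*. H3K27Ac ranged from −0.22 to 0.50 at *Per1*, −0.16 to 0.25 at *Bhlhe41*, −0.068 to 0.46 at *Nr1d1*, −0.15 to 0.40 at *Cry1*, −1.12 to 0.58 at *Per2* and −0.60 to 0.20 at *Clock*. Among named peaks whose sign was kept, log2 fold changes without 1 pool ran from 0.18 to 2.03 for Rpb2 at *Nr1d1*, −1.88 to −0.16 at *Clock*, 0.46 to 1.65 in the *Dbp* intron and −1.43 to −0.56 in that of *Nr1d2*, and for H3K27Ac 0.50 to 2.29 at *Bhlhe40* and −0.88 to −0.15 at the 3′ end of *Nr1d1*. In a fit without 1 pool, the lone pool is assumed to vary like the other genotype. *Arntl* at 17643 bp upstream gave no value without the WT female.

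The limits of these data are 2 pools per genotype, Rpb2 libraries that were deeper for KO, the shallow enrichment of 1 H3K27Ac library and read counts of under 20 at many gene-body peaks.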
